A study of Danio rerio with 8 samples.

Results

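The genes described here encode the protein subunits of oxidative phosphorylation, together with some of their assembly factors, in whole zebrafish larvae that were wild type or mutant for upf1. They were taken from the deposited gene count table by symbol. A gene entered when its symbol began with nduf followed by a, b, c, s or v, with cox followed by 4 to 8, with atp5, with uqcr, or with sdh followed by a, b, c or d. This gave 106 of 31953 genes, of which 38 belong to complex I, 5 to complex II, 8 to complex III, 22 to complex IV and 20 to complex V. The remaining 13 share a prefix but encode assembly or coupling factors and not subunits (ndufaf1 to ndufaf7, sdhaf1 to sdhaf4, atp5s and ATP5SL), and they are kept apart below. All larvae were of the strain TLEK and 5 days old, and polyA RNA of the whole body was sequenced. There were 4 wild type libraries and 4 of larvae homozygous for a nonsense mutation of upf1. The study's stated interest was the part upf1 plays in lymphocyte development. The labels do not say how many larvae or clutches a library holds, so the p-values given here reflect only how much these libraries vary, which may be technical.

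Oxidative phosphorylation is the last stage of respiration in the inner mitochondrial membrane. Complexes I and II pass electrons from NADH and succinate to ubiquinone, complex III passes them on to cytochrome c, and complex IV, cytochrome c oxidase, passes them to oxygen. Complexes I, III and IV pump protons, and complex V, the ATP synthase, uses the proton gradient to make ATP. Most subunits are encoded in the nucleus and imported, while a small set of core subunits is encoded by mitochondrial DNA. Upf1 is the RNA helicase at the centre of nonsense-mediated decay, the pathway that degrades mRNAs with a premature stop codon.

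Library totals ranged from 75335048 to 96104507 counts. Values below are counts per 1000000 (CPM) with factors from the trimmed mean of M-values (TMM), and a gene was called when its adjusted p in edgeR's quasi-likelihood test over all 23680 genes tested was under 0.05. Of those genes 2159 were higher in mutants (9.12%) and 1223 lower (5.16%), 14.3% in either direction. The mutated gene itself was at 288, 276, 294 and 284 CPM in mutants 1 to 4 and at 133, 123, 130.1 and 131 CPM in wild types 1 to 4. The mean upf1 level was 285 ± 7.51 CPM against 129 ± 4.35 CPM (SD, n = 4 each), a log2 fold change of 1.15 ± 0.07 (SE, adjusted p = 8.34e-06). A nonsense mutation need not lower an mRNA, so the level of upf1 does not check the labels. In whole larvae, fewer cells of a type and less RNA per cell cannot be told apart.

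Few of these genes differed between the genotypes. Of the 105 that passed the filter on low counts, 4 rose in mutants, 2 fell and 99 did not pass, so that 5.71% were called beside 14.3% of all genes. Those that rose were ndufa4b and cox4i1l of complex IV and the complex I assembly factor genes ndufaf6 and ndufaf7. Those that fell were cox4i2 and COX7A2L, both placed with complex IV. All 4 mutants lay above all 4 wild types for 4 of the 105 genes (12.4% of all genes) and below them for 1 (8.71% of all genes). The median log2 fold change over the 105 genes was -0.04, beside -0.01 over all genes, and 67 of them had a value below 0 (50.8% of all genes did). That median was above 0 without mutant 1 (0.01), without wild type 2 (0.06) and with scaling by total counts alone (0.12), a scaling that moved the median of all genes to 0.15.

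The intervals were narrow for most of the genes. For 90 of the 105 (85.7%) the 95% interval of the fold change lay within 1.5-fold in either direction, beside 48.4% of all genes. The median SE of the log2 fold change was 0.138 over these genes and 0.149 over all genes tested. The summed level of the 106 genes ranged from 10080 to 12900 CPM in mutants and from 10480 to 14500 CPM in wild types, and the ranges overlapped. As a share of all counts the 106 genes took 1.17% ± 0.10 in mutants and 1.11% ± 0.13 in wild types (SD, n = 4 each). The gene ndufa4l2b, a relative of ndufa4, had 2 to 23 reads per library and was not tested.

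**Figure D1:**
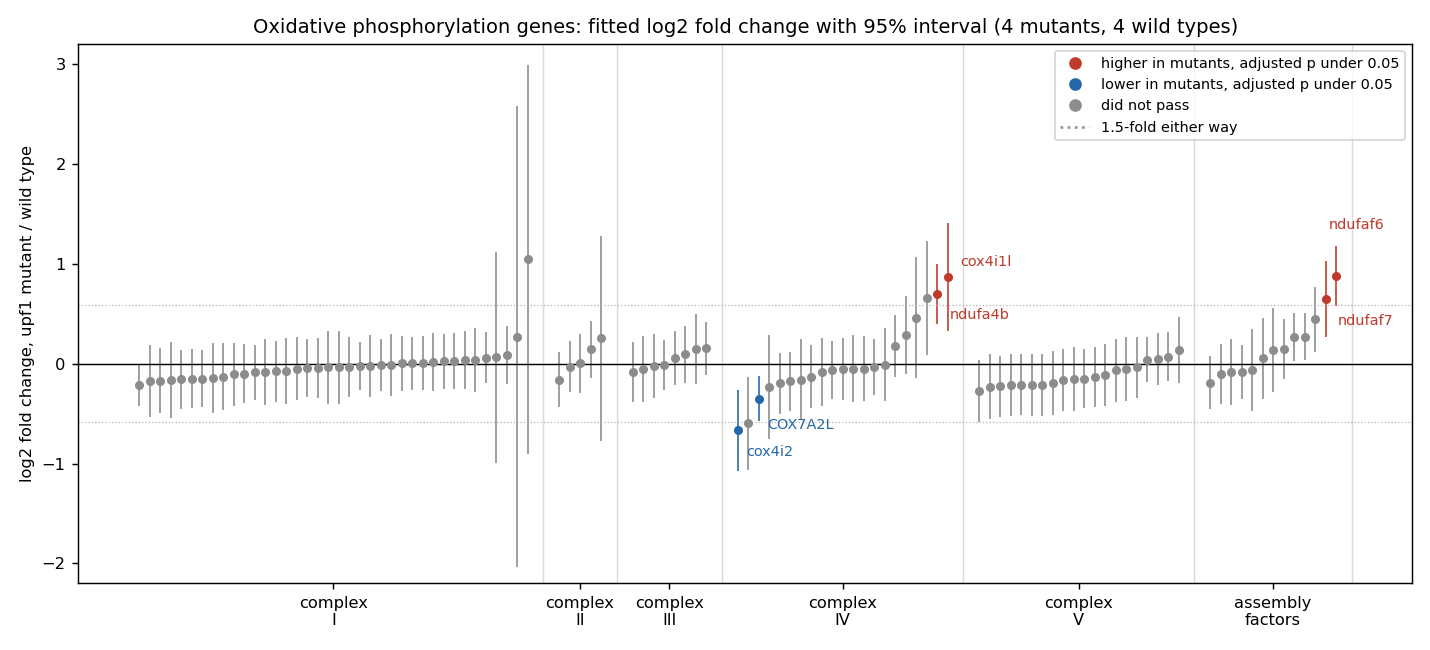
Fitted log2 fold change of upf1 mutants over wild types (vertical axis) for each of the 105 genes tested, grouped by complex and sorted within each group (horizontal axis). Bars are 95% intervals, colours mark adjusted p under 0.05, and the dotted lines lie at 1.5-fold. The 4 called higher and 2 called lower sit in complex IV and among the assembly factors, and complexes I, II, III and V hold 0 called genes. The shares called are 19.0% in complex IV and 15.4% among the assembly factors, beside 14.3% of all genes tested.

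Within each genotype 1 library stood above the others across most of these genes. Wild type 2 had the highest wild type value for 96 of the 105 genes (91.4%, beside 31.5% of all genes), and mutant 4 had the highest mutant value for 95 of the 105 (90.5%, beside 27.6% of all genes). The median deviation of a library from the 8-library mean of each gene was 0.34 in wild type 2 and 0.23 in mutant 4 on the log2 scale. In the other libraries it lay between -0.17 (mutant 1) and 0.04 (wild type 1). With wild type 2 and mutant 4 both left out, 3 of these genes were higher, 1 was lower and the median was -0.01. The 13 mitochondrially encoded subunits did not follow mutant 4, where their median deviation was -0.05, and stood at 0.22 in wild type 2. As a share of all counts, without TMM factors, they took 3.27%, 3.4%, 3.35% and 3.11% in wild types 1 to 4. In mutants 1 to 4 that share was 3.37%, 3.37%, 3.86% and 3.51%. Other lists read below showed the pattern to differing degrees. Wild type 2 was the highest wild type for 65.2% of the citric acid cycle genes and mutant 4 the highest mutant for 56.5%. For the list of other assembly factors, outside the symbol rule, these shares were 67.6% and 75.7%. For heart markers they were 88.9% and 11.1%, and for mitochondrial biogenesis, proteases and chaperones 34.9% and 41.9%. What separates wild type 2 and mutant 4 from the rest was not tested.

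**Figure D2:**
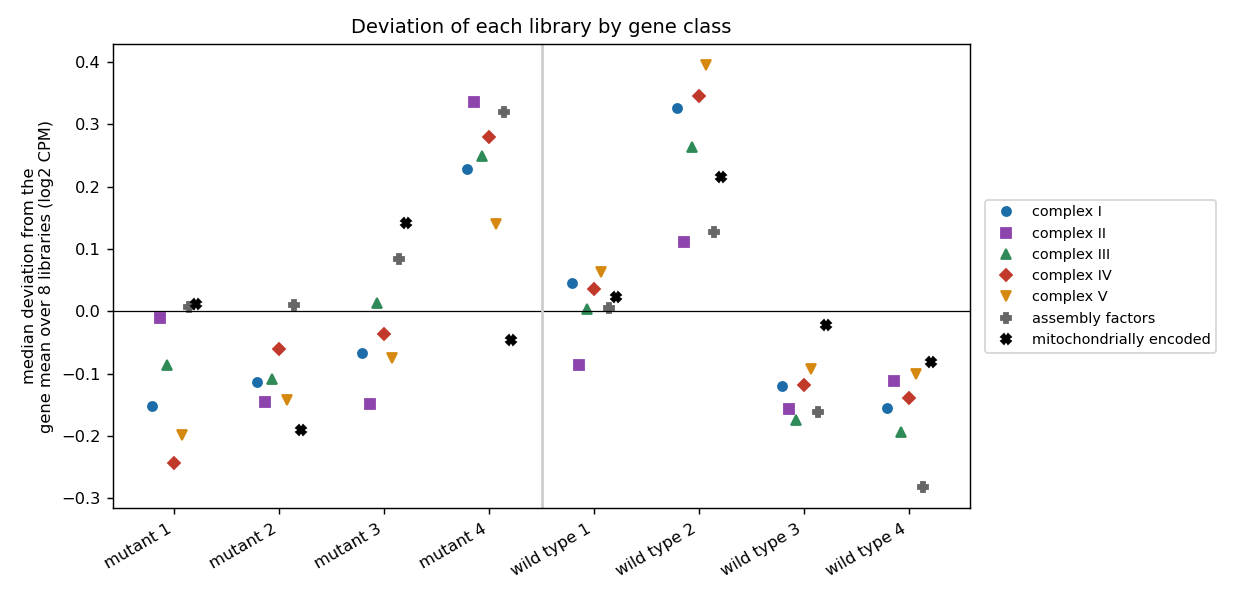
Median deviation of each library from the mean of each gene over the 8 libraries (vertical axis, log2 CPM) by library (horizontal axis), with 1 marker for each group of genes. The nuclear complexes lie above 0 in mutant 4 and wild type 2 and below 0 in wild types 3 and 4, and the mitochondrially encoded genes lie at -0.05 in mutant 4.

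Complex I takes electrons from NADH. None of its 38 genes was called by edgeR, DESeq2 or limma voom in either direction, and unadjusted p was under 0.05 for 1, which was lower. The median log2 fold change was -0.04, and 35 of 38 intervals lay within 1.5-fold. The median was above 0 without mutant 1 (0.00387), without wild type 2 (0.07) and with total-count scaling (0.12). The gene with the unadjusted p was ndufv1, which encodes the subunit that binds NADH and flavin. It stood at 146, 138, 153 and 168 CPM in mutants 1 to 4 and at 181, 194, 172 and 155 CPM in wild types 1 to 4. The groups overlapped through mutant 4 and wild type 4, and the log2 fold change was -0.21 ± 0.10 (SE, adjusted p = 0.168). The gene ndufs1, for the largest iron-sulphur subunit, was at 253 ± 27.6 CPM against 255 ± 32.9 CPM, and its 95% interval ran from -0.27 to 0.25.

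The 3 wide intervals in complex I belonged to NDUFB2, ndufa9b and ndufs8b. NDUFB2, an accessory subunit gene named here after its values were seen, had 36.4, 23.6, 26.7 and 53.0 CPM in mutants 1 to 4 and 49.2, 11.3, 45.3 and 28.1 CPM in wild types 1 to 4. Its lowest value was in wild type 2, the library in which most of the other genes were highest. The copy ndufa9b stood at 2.73, 2.03, 2.10 and 0.198 CPM in mutants 1 to 4 and at 2.84, 0.233, 0.221 and 2.57 CPM in wild types 1 to 4. Its libraries thus fell into 5 at 2.03 CPM or more and 3 at 0.233 CPM or less, with both genotypes in each, and its interval ran from -2.04 to 2.58. Its paralog ndufa9a, an accessory subunit near the ubiquinone site, was at 118 ± 15.7 against 125 ± 22.1 CPM, with an interval from -0.38 to 0.23. The copy ndufs8b was at 0.654 to 1.85 CPM in mutants and 0 to 0.912 CPM in wild types, with 0 reads in wild type 3, and its interval ran from -0.91 to 2.99. NDUFS8, its paralog for an iron-sulphur subunit, was at 108 ± 11.6 against 107 ± 16.1 CPM. Reads shared between such copies could have been split by the counting, so the levels of paralogs are uncertain.

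Complex II, succinate dehydrogenase, also works in the citric acid cycle. None of its 5 genes was called by edgeR, DESeq2 or limma voom, and unadjusted p was under 0.05 for 0. The flavoprotein gene sdha was at 255, 193, 217 and 286 CPM in mutants 1 to 4 and at 212, 243, 199 and 208 CPM in wild types 1 to 4. The mutants held both the lowest and the highest of the 8 values, and the interval ran from -0.14 to 0.43. The iron-sulphur subunit gene sdhb was at 82.3 ± 14.8 against 82.0 ± 9.32 CPM, with an interval from -0.29 to 0.30. For the membrane anchor genes the interval was -0.43 to 0.11 in sdhc and -0.28 to 0.22 in SDHD. The anchor copy sdhda was below 1 CPM in every library (14 to 54 reads), so a difference in it was not detectable at this depth unless large.

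Complex III, the cytochrome bc1 complex, gave intervals within 1.5-fold for all 8 of its genes. None was called by edgeR, DESeq2 or limma voom, and unadjusted p was under 0.05 for 0. With total-count scaling uqcrc1 was called higher (log2 fold change 0.31, adjusted p = 0.0437). This core protein gene was at 239, 208, 249 and 271 CPM in mutants 1 to 4 and at 215, 260.4, 198 and 195 CPM in wild types 1 to 4. Wild types 1 and 2 lay above mutant 2, the lowest mutant, and the log2 fold change was 0.15 ± 0.12 (SE, adjusted p = 0.43). UQCRFS1, the Rieske iron-sulphur protein gene, was at 199 ± 21.7 against 192 ± 28.7 CPM. The hinge protein gene uqcrh had the lowest fold change of the complex, at 71.1 ± 4.32 against 75.4 ± 15.5 CPM with an interval from -0.38 to 0.21.

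Complex IV held 4 of the 6 called genes. Of its 21 tested genes 2 rose, 2 fell and 17 did not pass, so that 19.0% were called, beside 14.3% of all genes tested. Complex IV had 13 of 21 intervals within 1.5-fold. Its median log2 fold change was -0.06. That median was above 0 without mutant 1 (0.00488), without wild type 2 (0.06) and with total-count scaling (0.10).

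The gene ndufa4b encodes a protein of the NDUFA4 type, first assigned to complex I and later found in complex IV in mammals. It stood at 108, 155, 134 and 150.4 CPM in mutants 1 to 4 and at 76.9, 101, 76.4 and 81.7 CPM in wild types 1 to 4. All 4 mutants lay above all 4 wild types, with mutant 1 and wild type 2 nearest to each other. The rise was 1.63-fold, a log2 fold change of 0.70 ± 0.13 (SE, adjusted p = 0.00835). It was called in 17 of 17 alternative fits, with log2 fold changes from 0.64 to 0.87. Its relative ndufa4l was at 190.1 ± 27.6 against 195 ± 25.7 CPM, and its interval ran from -0.32 to 0.25.

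The genes of the cox4 family encode subunit 4, a nuclear subunit that takes part in regulating the oxidase in mammals. The gene cox4i1 was at 222, 235, 251 and 295 CPM in mutants 1 to 4 and at 271, 353, 254 and 256 CPM in wild types 1 to 4. The groups overlapped, and the interval ran from -0.47 to 0.12. The other members of the family moved in opposite directions. The gene cox4i1l stood at 10.4, 19.6, 10.8 and 19.5 CPM in mutants 1 to 4 and at 8.998, 9.73, 7.63 and 6.61 CPM in wild types 1 to 4. The mutants did not overlap the wild types, although mutants 1 and 3 lay close to wild type 2 and far below mutants 2 and 4. The rise was 1.83-fold, a log2 fold change of 0.87 ± 0.24 (SE, adjusted p = 0.0406). The gene cox4i2, whose mammalian counterpart is the form induced by low oxygen and found in lung, stood at 17.4, 27.9, 15.8 and 23.8 CPM in mutants 1 to 4. In wild types 1 to 4 it stood at 31.6, 40.5, 29.9 and 32.9 CPM. All 4 mutants lay below all 4 wild types, and the level was 1.59-fold higher in wild types (log2 fold change -0.67 ± 0.18, SE, adjusted p = 0.0379).

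Both calls were marginal. The cox4i1l call was kept in 8 of 17 alternative fits and lost without mutants 2 or 4 or any 1 wild type (adjusted p 0.0518 to 0.109) and without mutant 4 and wild type 2 together (0.096), with log2 fold changes from 0.72 to 1.04 over the alternatives. The cox4i2 call was kept in 8 of 17 and lost without mutants 1, 3 or 4 or any 1 wild type (0.0538 to 0.0972), with total-count scaling (0.0809) and without mutant 4 and wild type 2 together (0.104), with log2 fold changes from -0.83 to -0.50. A ratio of 2 genes within a library does not depend on the scaling. A set of 12 such pairs of related genes, chosen after values were seen, is given as a description. Exact permutation tests on the ratios gave p = 0.0286 at the lowest, the smallest value that 4 libraries a side allow. After Benjamini-Hochberg adjustment over the 12 ratios the lowest was 0.0572, so no ratio passed 0.05. The log2 ratio of cox4i1l to cox4i2 counts was -0.74, -0.51, -0.55 and -0.28 in mutants 1 to 4 and -1.81, -2.06, -1.97 and -2.32 in wild types 1 to 4. The means were -0.52 ± 0.19 and -2.04 ± 0.21 (SD, n = 4 each), and a ratio of a gene called higher to a gene called lower had to differ. The difference of 1.52, or 2.86-fold in the ratio, was 1.42 to 1.59 with each library left out in turn.

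In 5 other pairs the ratio did not overlap between the genotypes, and several of these pairs hold a gene already named for its difference. The share of such ratios over pairs of other genes is not given here, so the count is not read as a feature of these genes. The log2 ratio of cox4i1l to cox4i1 was higher in mutants by 0.99, that of ndufa4b to ndufa4l by 0.73, that of cox6b1 to cox6b2 by 0.77 and that of atp5g1 to atp5g3b by 0.38. The log2 ratio of cox7a1 to cox7a2a was lower in mutants, at -2.95 ± 0.47 against -2.38 ± 0.05. In the other 6 pairs the genotypes overlapped, among them cox6a2 to cox6a1 (-4.80 ± 0.12 against -4.83 ± 0.15) and atp5mea to atp5meb (-1.94 ± 0.05 against -1.98 ± 0.09). A ratio shows unequal change and does not say which gene of a pair changed.

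COX7A2L, known in mammals as a protein that joins complexes III and IV into supercomplexes, stood at 31.0, 31.7, 31.9 and 38.7 CPM in mutants 1 to 4. In wild types 1 to 4 it stood at 44.3, 47.7, 40.03 and 38.1 CPM. Mutant 4 lay above wild type 4, and the other 3 mutants lay below every wild type. The log2 fold change was -0.35 ± 0.10 (SE, adjusted p = 0.0468), or 1.28-fold higher in wild types. The call was kept in 7 of 17 alternatives. It was lost without mutants 1, 2 or 3 or any 1 wild type (adjusted p 0.0507 to 0.121), with upper-quartile scaling (0.0517) and with total-count scaling (0.161, log2 fold change -0.19).

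Other genes of complex IV differed by amounts near those of the called genes. The subunit 6B gene cox6b1 stood at 33.4, 58.5, 44.8 and 68.4 CPM in mutants 1 to 4 and at 33.6, 44.0, 29.3 and 23.1 CPM in wild types 1 to 4. Mutant 1 lay among the wild types, and the log2 fold change was 0.66 ± 0.25 (SE, adjusted p = 0.124), called higher by DESeq2 (adjusted p = 0.0427) and with total-count scaling (0.0378). The gene cox7a1, whose mammalian counterpart is the heart and muscle form of subunit 7A, stood at 6.98, 10.7, 10.8 and 6.10 CPM in mutants 1 to 4. In wild types 1 to 4 it stood at 13.5, 16.1, 12.01 and 10.7 CPM, so that wild type 4 lay among the upper mutants. Its log2 fold change was -0.60 ± 0.21 (SE, adjusted p = 0.0885), and DESeq2 called it lower (adjusted p = 0.0316). The form cox7a2a was at 65.0 ± 8.67 against 67.9 ± 10.8 CPM.

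Levels of the remaining complex IV genes gave no call in any fit listed here. The symbol COX5B was carried by 2 genes. ENSDARG00000015978 was at 214 ± 32.1 against 221 ± 41.5 CPM, with an interval from -0.38 to 0.28. ENSDARG00000068738 was at 5.48, 10.3, 6.80 and 13.8 CPM in mutants 1 to 4 against 5.91 to 8.10 CPM in wild types, with an interval from -0.14 to 1.06. Subunit 6A, which has a muscle form in mammals, was at 172 ± 19.3 against 198 ± 38.5 CPM for cox6a1 and at 6.25 ± 1.26 against 6.98 ± 1.45 CPM for cox6a2. The subunit 5A genes cox5aa and COX5A had intervals of -0.43 to 0.26 and -0.14 to 0.49.

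**Figure D3:**
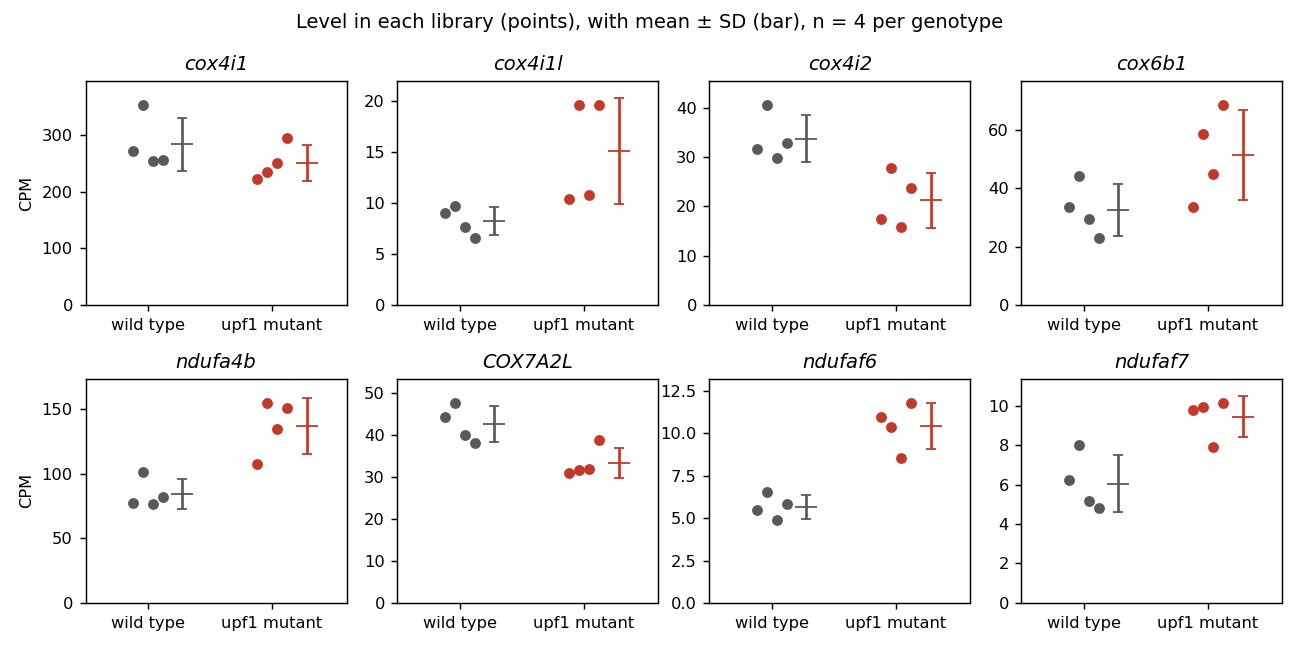
CPM (vertical axis, from 0) of 8 genes in each of the 4 wild type and 4 upf1 mutant libraries (points), with mean and SD beside them. The mutants lie above the wild types for cox4i1l, ndufa4b and ndufaf6 and below them for cox4i2, and the genotypes overlap for cox4i1, cox6b1, COX7A2L and ndufaf7.

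Complex V, the ATP synthase, had most of its genes on one side of 0 without a single call. Of its 20 genes 16 had a log2 fold change below 0, with a median of -0.15, which was 0.01 with total-count scaling, where the median of all genes was 0.15. None was called by edgeR, DESeq2 or limma voom, unadjusted p was under 0.05 for 0, and all 20 intervals lay within 1.5-fold. The median was -0.03 without wild type 2 and -0.23 without mutant 4, so its size rested on those libraries. The beta subunit gene atp5b, for the catalytic subunit, stood at 1526, 1268, 1520.0 and 1715 CPM in mutants 1 to 4. In wild types 1 to 4 it stood at 1671, 2153, 1511 and 1570.0 CPM. The groups overlapped, mutant 2 was the lowest and wild type 2 the highest of the 8, and the interval ran from -0.51 to 0.12. The alpha subunit gene atp5a1 had the same order of extremes, at 1388 ± 149 against 1539 ± 230 CPM (interval -0.44 to 0.14).

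The membrane ring of the ATP synthase is built from subunit c, which mammals make from several genes with the same mature protein. Its genes differed in sign here. The gene atp5g3b was at 478 ± 65.5 against 561 ± 98.9 CPM, with an interval from -0.56 to 0.09. The genes atp5g3a and atp5g1 were at 159 ± 15.4 against 152 ± 19.0 CPM and at 186 ± 20.3 against 169 ± 37.0 CPM, with intervals from -0.17 to 0.31 and from -0.19 to 0.47. The subunit e gene atp5meb had the lowest fold change of the complex, at 68.2 ± 8.45 against 82.4 ± 15.6 CPM, with an interval from -0.58 to 0.03. The genes of the inhibitor that blocks reverse ATP hydrolysis, atp5if1a and atp5if1b, had intervals of -0.38 to 0.25 and -0.18 to 0.26.

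The assembly factors build the complexes and are not part of the finished enzymes, and their median log2 fold change was 0.14. Of the 13 genes 2 rose, 0 fell and 11 did not pass, so that 15.4% were called, beside 14.3% of all genes tested. Unadjusted p was under 0.05 for 5 higher and 0 lower. The share of all genes at that unadjusted cut-off is not given here, so these 5 are not read as an excess. With DESeq2 3 were higher and 0 lower, and with limma voom 2 and 0. The complex I factor gene ndufaf6 stood at 10.9, 10.4, 8.55 and 11.8 CPM in mutants 1 to 4 and at 5.46, 6.53, 4.86 and 5.85 CPM in wild types 1 to 4. The genotypes did not overlap, with mutant 3 the lowest mutant and wild type 2 the highest wild type. The rise was 1.84-fold (log2 fold change 0.88 ± 0.14, SE, adjusted p = 0.00261), called in 17 of 17 alternatives with log2 fold changes from 0.81 to 1.04. The gene ndufaf7, for a methyltransferase, stood at 9.80, 9.93, 7.91 and 10.2 CPM in mutants 1 to 4. In wild types 1 to 4 it stood at 6.23, 7.99, 5.15 and 4.798 CPM, so that mutant 3 lay just under wild type 2. Its rise was 1.56-fold (log2 fold change 0.64 ± 0.17, SE, adjusted p = 0.0328). That call was kept in 11 of 17 alternatives and lost without mutants 1, 2 or 4 or wild types 1, 3 or 4 (adjusted p 0.0676 to 0.094).

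Of the other complex I factors none passed. NDUFAF2, NDUFAF3 and ndufaf4 had intervals of the log2 fold change of -0.36 to 0.19, -0.35 to 0.46 and -0.28 to 0.56. The gene ndufaf5, for an enzyme that hydroxylates an arginine of NDUFS7 in mammals, was at 22.4 ± 1.99 against 18.6 ± 2.14 CPM, and the 4 mutants lay just above the 4 wild types (log2 fold change 0.27 ± 0.11, SE, adjusted p = 0.123). The gene ndufaf1 was at 31.1 ± 3.64 against 25.9 ± 2.57 CPM (0.26 ± 0.11, SE, adjusted p = 0.135). ATP5SL, a complex I factor in mammals despite its name and chosen here after its values were seen, was at 4.89 ± 0.57 against 3.59 ± 0.53 CPM (adjusted p = 0.0739). It was called higher without wild type 2 (0.0333), by DESeq2 (0.04) and with total-count scaling (0.0151), as ndufaf1 and ndufaf5 were with the last (0.0134 and 0.0136). The complex II factor genes sdhaf1 and sdhaf2 had intervals of -0.40 to 0.20 and -0.46 to 0.08.

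The 13 subunits encoded by mitochondrial DNA gave 0 calls in edgeR, DESeq2 or limma voom, and unadjusted p was under 0.05 for 0. Their log2 fold changes lay between -0.13 and 0.03, with a median of -0.05, and all 13 intervals lay within 1.5-fold. The median was 0.00741 without mutant 2, 0.02 without wild type 2 and mutant 4 together, and 0.11 with total-count scaling. MT-CO1, the catalytic subunit of complex IV, was at 10850 ± 1095 against 11350 ± 250 CPM (log2 fold change -0.07, adjusted p = 0.747). Mitochondrial mRNAs carry short A tails, and polyA selection acts on them differently from nuclear mRNAs, so these levels were compared between libraries only. Of the 5 tested nuclear genes of subunits or associated proteins outside the symbol rule, 0 were called (also 0 by unadjusted p, DESeq2 or limma voom), the cytochrome c1 gene cyc1 among them (220 ± 23.2 against 211 ± 30.6 CPM).

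A list of 37 tested genes outside the symbol rule, named other assembly factors here, was read in the same way. Not all of its genes, fastkd2 among them, encode assembly factors of a respiratory complex. In that list 5 rose, 0 fell and 32 did not pass, with a median of 0.14. The share called was 13.5%, beside 14.3% of all genes tested. With DESeq2 and limma voom 0 were lower too, and unadjusted p was under 0.05 for 1 lower. The genes that rose were cox18, whose product inserts subunit 2 of complex IV into the membrane, ttc19 and BCS1L for complex III, fastkd2 and timmdc1, the last outside the naming rule. The level of cox18 was 12.8 ± 1.22 against 7.80 ± 1.013 CPM (1.64-fold, adjusted p = 0.00439), and that of ttc19 was 17.3 ± 1.04 against 11.8 ± 1.00 CPM (1.47-fold, adjusted p = 0.00418). Both were called in 17 of 17 alternatives, against 13 for BCS1L, 15 for fastkd2 and 7 for timmdc1. The count was 2 without wild type 4 and 3 without mutant 1 or wild type 3. With total-count scaling it was 14, and without wild type 2 it was 7, with 1 lower.

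In the citric acid cycle list 2 of 23 genes fell, 0 rose and 21 did not pass, so that 8.7% were called, beside 14.3% of all genes tested. Those that fell were dldh (1.29-fold higher in wild types, adjusted p = 0.0323) and pdha1b (1.53-fold, adjusted p = 0.0399), subunits of the pyruvate dehydrogenase complex, each kept in 9 of 17 alternatives. Of the 23, 1 was higher and 6 lower by unadjusted p, 1 higher and 3 lower in DESeq2, and 0 higher and 2 lower in limma voom. The share of all genes by unadjusted p is not given here, so the 6 are not read as an excess. Without mutants 1 or 3 or wild types 1, 2 or 4, 0 were lower, and 1 was higher without mutant 2 or wild type 2. With total-count scaling 4 were higher and 0 lower, so that the direction of the calls turned.

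In the glycolysis list 4 of 31 genes rose, 3 fell and 24 did not pass, so that 22.6% were called, beside 14.3% of all genes tested. The muscle phosphofructokinase gene pfkma (1.66-fold, adjusted p = 0.0113) and the lactate dehydrogenase gene ldha (1.41-fold, adjusted p = 0.0138) rose. The muscle aldolase gene aldoab fell from 658 ± 85.7 in wild types to 385 ± 62.6 CPM in mutants (log2 fold change -0.77, adjusted p = 0.00652). The calls of pfkma and aldoab were kept in 17 of 17 alternatives. The number higher was 2 without wild types 3 or 4, 6 without wild type 2, 10 in DESeq2 and 12 with total-count scaling. The number lower was 2 without mutant 3 or wild types 1, 2 or 4.

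Of 43 tested genes for mitochondrial biogenesis, proteases and chaperones, 9 rose, 2 fell and 32 did not pass. The share called was 25.6%, beside 14.3% of all genes tested. The matrix protease gene lonp1 rose 2.01-fold (55.5 ± 2.76 against 27.6 ± 4.77 CPM, adjusted p = 0.000524) and the mitochondrial Hsp70 gene hspa9 rose 1.71-fold (291.5 ± 10.1 against 171 ± 16.1 CPM, adjusted p = 0.000428). The mitochondrial DNA polymerase genes polg (1.66-fold, adjusted p = 0.000453) and polg2 (1.64-fold, adjusted p = 0.00233) rose as well. These 4 calls were kept in 17 of 17 alternatives. The genes that fell were esrra and slc25a4, both outside the naming rule, with calls kept in 8 and 11 of 17 alternatives. The number higher was 18 with total-count scaling and 7 to 9 with each library left out, and the number lower was 0 without mutants 1 or 2 or wild types 1 or 3.

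**Figure D4:**
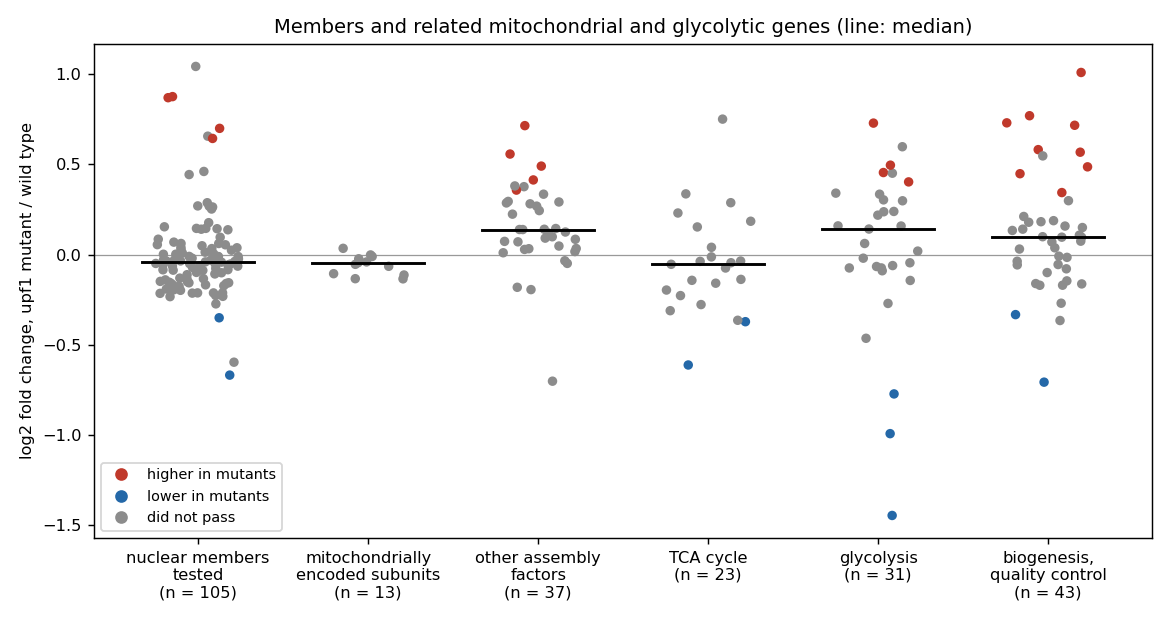
Log2 fold change of upf1 mutants over wild types (vertical axis) for the nuclear genes tested, the mitochondrially encoded subunits and 4 related lists (horizontal axis), 1 point for each gene, coloured where adjusted p was under 0.05, with the median as a line. The mitochondrially encoded subunits span -0.13 to 0.03, and the list named other assembly factors has 5 genes called higher and 0 lower. With total-count scaling all medians shift by about as much as the median of all genes, which goes to 0.15.

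Marker lists of 9 tissues or cell types were read beside these genes, against 5.16% of all genes lower and 9.12% higher. Of 18 tested fast skeletal muscle markers 6 fell, 0 rose (also 0 by unadjusted p, DESeq2 or limma voom) and 12 did not pass, with a median of -0.43. Their summed level was 46500 to 61050 CPM in mutants and 72500 to 96360 CPM in wild types, without overlap, and it was highest in wild type 2. Slow muscle markers gave 0 calls among 7 (1 each way by unadjusted p, and 0 with DESeq2 and limma voom). Heart markers gave 1 lower of 9, neurons 1 lower of 7, intestine 1 lower of 6, ionocytes and epidermis 2 lower of 7, erythrocytes 1 lower of 6 and photoreceptors 1 lower of 4. Liver markers gave 3 lower and 1 higher of 8. Medians were -0.595 for photoreceptors, -0.537 for ionocytes and epidermis, -0.471 for intestine, -0.435 for erythrocytes and -0.37 for heart. They were -0.307 for liver, -0.124 for neurons and -0.0024 for slow muscle. Summed ionocyte and epidermis markers were at 5439 to 8889 CPM in mutants and 10500 to 14090 CPM in wild types, without overlap. The part of any of these tissues in the levels of the oxidative phosphorylation genes was not tested.

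Splicing of these genes was read from the authors' deposited tables of splicing events, which compare a set labelled SAMPLE_1 with a set labelled SAMPLE_2, 4 libraries each. The headers do not name the genotype of either set, so no genotype is given to a direction here. Of 137 listed events in 55 of the genes, 12 in 8 genes had an FDR of 0.05 or less in the authors' deposited tables, or 8.76%, beside 8.84% of all 37768 events. The share over all genes was 8.79% for skipped exons, 14.3% for retained introns, 12.7% for alternative 5′ splice sites, 10.2% for alternative 3′ splice sites and 7.35% for mutually exclusive exons. Among these genes 11 of the 12 were skipped exons and 1 was an alternative 5′ splice site. Of these 11 events 9 had an exon length that was not a multiple of 3, or 81.8%, beside 67.9% of the 2702 skipped-exon events of all genes at that FDR. Inclusion was lower in SAMPLE_1 in 8 of the 11, or 72.7%, beside 85.8%. The same exon can be listed in more than 1 event, as in ATP5J, so the 11 events hold fewer than 11 exons. Neither share is read as a feature of these genes.

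The exon of ndufa9a at 16680425 to 16680566 on the minus strand of chromosome 25 (142 bases, GRCz10 as in the submitters' notes) was skipped in the authors' deposited table by 251 junction reads in SAMPLE_1 and by 0 in SAMPLE_2. Its inclusion level there was 0.929, 0.938, 0.943 and 0.958 in the libraries of SAMPLE_1 and 1 in each library of SAMPLE_2. An exon of 50 bases in ndufa7, an accessory subunit gene of complex I, at 47816255 to 47816304 on the plus strand of chromosome 8, had 286 skipping reads against 30 in the authors' deposited table. The sets did not overlap for it, at 0.895 to 0.960 against 0.985 to 0.999. For both genes the authors' deposited table lists the FDR as 0.

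In ndufb10, another accessory subunit gene, an exon of 139 bases at 18259745 to 18259883 on the minus strand of chromosome 3 had 108 skipping reads against 11 (difference -0.026, FDR 1.97e-11 in the authors' deposited table). The exon of 77 bases in cox4i1 at 30530474 to 30530550 on the plus strand of chromosome 18 had 260 skipping reads against 6, but inclusion was at 0.981 to 0.988 against 0.999 to 1 (FDR 0.00429 in the authors' deposited table). In cox7a2a an exon of 32 bases at 49889955 to 49889986 on the minus strand of chromosome 17 was nearly absent, with 217 inclusion reads in SAMPLE_1 and 7 in SAMPLE_2 and levels of 0.015 to 0.025 against 0 to 0.002 (FDR 7.48e-10 in the authors' deposited table). These were small shares of each gene's junction reads. The assembly factor gene ndufaf6 was the 1 gene called both in expression and in splicing: its exon of 100 bases at 40556560 to 40556659 on chromosome 16 had levels of 0.840 to 0.955 against 0.880 to 1, which overlap (difference -0.067, FDR 0.00115 in the authors' deposited table).

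Larger differences were listed for ATP5J and sdhda. The symbol ATP5J, without regard to case, was carried by 2 genes, and the events all belonged to ENSDARG00000077967. This gene, for coupling factor 6 in the stalk of the ATP synthase, held 5 of the 12 events, which share junctions and are not independent. Its exon of 64 bases at 19693552 to 19693615 on the plus strand of chromosome 9 had levels of 0.734, 0.766, 0.803 and 0.782 in SAMPLE_1 and 0.876, 0.907, 0.875 and 0.870 in SAMPLE_2 in the authors' deposited table (difference -0.111, FDR 1.71e-11). The sets did not overlap. A neighbouring stretch of 1020 bases at 19685108 to 19686127 was listed with a difference of -0.113 in 1 event and 0.082 in another with other flanking exons in the authors' deposited table, so its direction depends on the flanks. The exon of 139 bases in sdhda at 29484682 to 29484820 on the minus strand of chromosome 5 rested on few reads, 51 inclusion and 0 skipping in SAMPLE_1 against 33 and 10 in SAMPLE_2 (difference 0.34, FDR 4.23e-06 in the authors' deposited table). Only 3 of the 12 events had a difference of at least 0.1 in either direction.

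**Figure D5:**
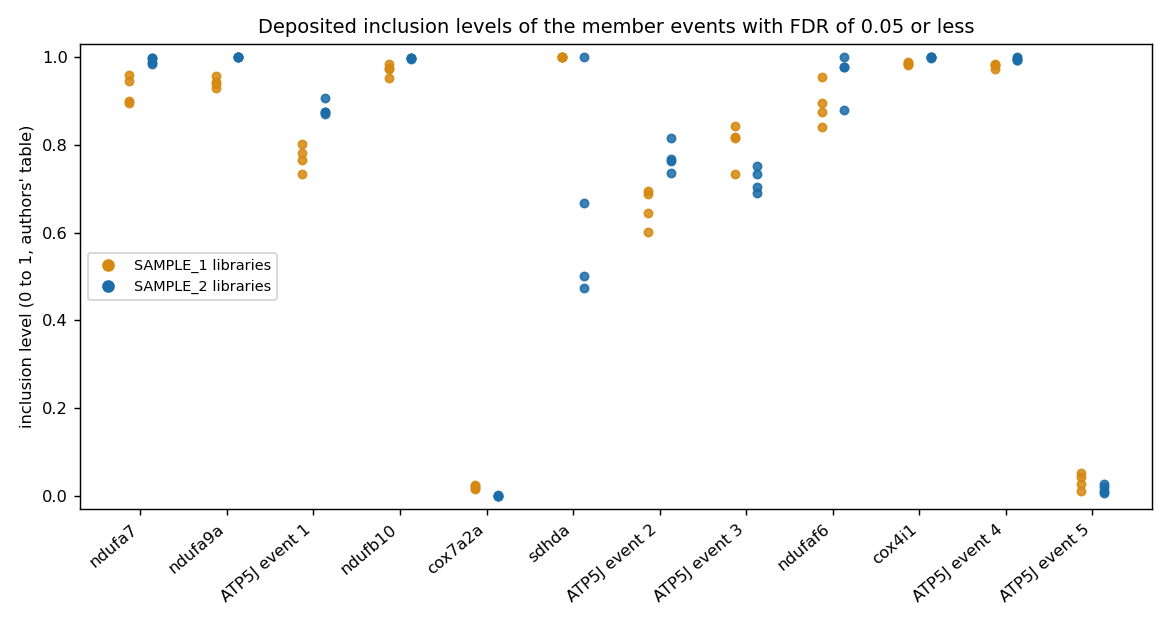
Inclusion level (vertical axis, 0 to 1, from the authors' deposited tables) in each library of the sets labelled SAMPLE_1 and SAMPLE_2 for the 12 events with an FDR of 0.05 or less (horizontal axis), 1 point for each library. Most events lie near full or near no inclusion, and the sets stand clear of each other with a wide gap in the exon of 64 bases in ATP5J (event 1).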

How the data were processed

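The authors deposited gene counts (whole numbers per Ensembl gene) for 8 libraries, and splicing tables that hold p-values, FDR values, junction reads and, as a score from -1 to 1, the inclusion difference per event, per the file headers. The submitters' processing notes name the build GRCz10 and the tools featureCounts, TopHat2 2.0.13, STAR 2.5.2b, Salmon 0.7.2, SAMtools 1.3.1, sleuth 0.28.1, bcl2fastq 2.17.1.14 and R 3.3.1. The aligner used before counting and the strand setting were not given in the sources used here. Reads of overlapping or antisense genes therefore cannot be told apart. A deposited transcript table, sequences and promoters were not analysed here, and some genes that the naming rule takes are not reported here.

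Symbols came from the splicing tables (55 of the 106 genes) or a table of gene names (51), in lower case for matching. The test on counts was that of edgeR 4.0.16, run in R 4.3.3 (filterByExpr with a minimum count of 10 and total of 15, TMM, robust quasi-likelihood F-test, Benjamini-Hochberg over all genes tested). CPM were computed from the counts with TMM factors of 1.019 to 1.106 in mutants and 0.8932 to 0.9774 in wild types, without overlap. Shares of all counts do not use these factors, so they can differ from CPM in direction. The genes and the related lists were chosen with earlier results of these data known. Named genes were upf1, every called gene, and in each complex the 3 of highest CPM and the 2 largest differences each way. Pairs of copies, genes with a called splicing event, the mitochondrially encoded subunits and up to 4 called genes of each related list were named as well. Alternatives were DESeq2 1.42.0 (test and size factors), limma 3.58.1 voom, upper-quartile and total-count scaling, 2 other filters, the replicate number as a block, and leaving out libraries. Total-count scaling, the joint removal of wild type 2 and mutant 4, and the gene ratios were added after seeing the data. Same-numbered libraries of the genotypes did not deviate together (r = 0.02, 0.03, -0.07 and -0.05), so numbers were not treated as pairs. On simulated mutants and wild types with 23410 genes tested, edgeR's test recovered 22.5% of the 1.5-fold, 66.7% of the 2-fold and 92.1% of the 4-fold changes, with 3 false calls of 117. Only 80, 57 and 63 genes were changed by these folds, while the data gave 3382 calls. The cut-off on unadjusted p was thus stricter in the simulation, and recovery at the cut-off of the data was not simulated. The intervals of the fold changes come from the edgeR fit and take in variation between libraries, not counting error alone.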

Additional observations from a re-analysis of the deposited data

Results flagged for a closer look

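In 10 of 118 groups of 4 libraries examined, 1 library stood apart, the share of the group's range taken by its gap to the nearest other library being over Dixon's 95% critical value. Chance gives about 1 in 20 such groups. Wild type 2 was the high library in 4 of them: NDUFB8 at 130.7 CPM (next highest wild type 91.0), UQCR10 at 83.0 (62.2), cox8b at 35.1 (21.6) and ndufa7 at 28.2 (19.4). Mutant 4 was the high library for COX7A2L at 38.7 CPM (next highest mutant 31.9), sdhc at 56.9 (47.5), ndufaf5 at 25.3 (21.7) and cox5aa at 208 (162). The gene ndufaf7 was low in mutant 3 at 7.91 CPM (next lowest mutant 9.80). The gene ndufs8b was at 0.0 CPM in wild type 3 (next lowest wild type 0.851). Wild type 2 and mutant 4 were also the highest libraries of their genotype for most of the other oxidative phosphorylation genes.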

How the results depend on the processing

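Genes called higher over the whole table numbered 4260 with total-count scaling, 1379 with the replicate block and 1435 to 2267 with each library left out, against 2159. Genes lower numbered 610 with total-count scaling, 2105 in DESeq2, 666 with the replicate block and 675 to 1279 with each library left out, against 1223. Of the oxidative phosphorylation genes, those higher numbered 9 with total-count scaling, 2 without the ndufaf and sdhaf genes and 2 to 4 with each library left out, against 4. Those lower numbered 1 with upper-quartile scaling, 0 with total-count scaling, 1 with the replicate block, 1 without wild type 2 and mutant 4 together and 0 to 1 with each library left out, against 2. Under the replicate block cox4i1l (adjusted p = 0.0751) and COX7A2L (0.123) lost their calls, and the same-numbered libraries were not shown to be pairs. In limma voom cox4i1l lost its call (0.0627). DESeq2 called 12 fast muscle markers lower, against 6, and 10 glycolysis genes higher, against 4. With the replicate block these numbered 3 and 1, and ldha lost its call (0.0529), while the citric acid cycle genes lower numbered 1, against 2. Splicing events with an inclusion difference of at least 0.1 numbered 3, against 12. Some uncalled genes changed sign. With total-count scaling the log2 fold change was 0.000402 for sdhc, 0.130 for SDHD, 0.0812 for uqcrh, 0.111 for UQCRQ and 0.057 for sdhaf1. With each library left out it ran from -0.0929 to 0.809 for ndufa9b, from -0.0872 to 0.0821 for SDHD, from -0.168 to 0.0546 for uqcrh, from -0.15 to 0.0868 for UQCRQ and from -0.149 to 0.00785 for sdhaf1. Without wild type 2 and mutant 4 together it was 0.0489 for SDHD and 0.0334 for uqcrh. The cause of these changes was not tested. The calls of upf1, ndufa4b and ndufaf6 held in all 17 alternatives. With 4 libraries a side, the test missed most 1.5-fold differences in the simulation, where its cut-off was stricter than in the data. The simulation thus does not give the recovery at the cut-off of the data. A gene that did not pass is read by its 95% interval and not as unchanged. That interval lay within 1.5-fold for 90 of the 105 oxidative phosphorylation genes tested.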
